A study of Toxocara canis with 2 samples.

Results

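Collagens and cuticlins of the nematode cuticle, together with the enzymes that modify and cross-link collagen, were examined in adult Toxocara canis, the roundworm of dogs. The members are assembled transcripts (unigenes) whose best match in the Nr or Swiss-Prot protein database is described as a collagen, a cuticle protein or cuticlin, a prolyl 4-hydroxylase or a peroxidasin. This rule found 41 unigenes among 8589 with a protein description and 70267 seen in either library. They comprise 21 cuticle collagens, 7 cuticlins, 2 prolyl 4-hydroxylases, 1 peroxidasin, 7 unigenes whose Swiss-Prot match is a collagen of a vertebrate, and 3 other matches to the search words. Descriptions were deposited only with the authors' table of unigenes they called different between the sexes, so every member had already been selected for a difference of at least 2-fold, and cuticle genes that did not differ carry no name here. A count of members that differ in either direction is therefore fixed by that selection. Only the division between directions and the sizes beyond 2-fold are informative.

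The study compared the sexes with 1 RNA-seq library from the entire body of an adult female worm and 1 from that of an adult male worm, both of the strain labelled Rongchang. Each library came from an individual worm, so gonads, eggs or sperm, gut, muscle and epidermis are all included. With 1 library per sex, no difference has a replicate check and no test was run. Intervals are exact 95% binomial intervals on fragment counts, which cover counting error only.

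The nematode cuticle is an extracellular coat secreted by the epidermis and renewed at each molt. It is built mainly of small collagens that are trimmed and cross-linked after secretion, with an outer layer of insoluble cuticlins that share a zona pellucida domain. Prolyl 4-hydroxylase stabilises the collagen triple helix inside the cell, and basement membranes beneath the tissues use a different set of collagens. Roles of individual genes given below are known from Caenorhabditis elegans unless another species is named.

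The female library gave 19.8 M fragments spread over 58435 unigenes, and the male library 18.4 M over 64618. The levels are FPKM, fragments per kilobase of unigene and per 1 M fragments of the library, and 3 fragments on a unigene of 1 kilobase correspond to 0.152 FPKM in the female and 0.163 FPKM in the male library. The sex labels fitted the markers of sperm and of eggs. All 17 unigenes described as major sperm protein were lower in the female library, with a summed 8.85 FPKM in the female and 32605 FPKM in the male library, and 10 of them had 0 fragments in the female library. Of 49 unigenes for vitellogenin, chondroitin proteoglycan and chitin synthase, 38 were higher in the female library, and the 49 summed to 90442 FPKM in the female and 878 FPKM in the male library. Unigenes for body wall muscle proteins summed to 835 FPKM in the female and 615 FPKM in the male library, and those for aminopeptidases and cathepsins of the intestine to 324 FPKM in the female and 89.8 FPKM in the male library. Of unigenes whose Nr match is another organism, 119 were named for Trypanosoma, 75 for primates, 3 for dog and 0 for the bacterial genera searched. Of the 119, 109 had 0 fragments in the male library, but all 119 together had 3782 fragments in the female and 8450 in the male library. Among the unigenes named for these organisms, 1, a primate match, is a member. The part of these differences in makeup in the results below was not tested. In whole worms, fewer cells of a type and less RNA per cell cannot be told apart.

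Of the 41 members, 24 were higher and 17 lower in the female library. Among all described unigenes of the authors' table, 50.5% were higher and 49.5% lower. A size rule marked large differences. It asked that log2((female FPKM + 1)/(male FPKM + 1)) be 2 or more, or -2 or less, that is, 4-fold with 1 FPKM added to each level, which understates differences of low unigenes, and that the level reach 5 FPKM in 1 library. By this rule 5 members (12.2%) were higher and 7 (17.1%) lower in the female library, close to the 8.77% higher and 15.9% lower of all described unigenes. Over all unigenes of both libraries the rule marked 2.38% as higher and 4.5% as lower. Under either of 2 other scalings of the libraries, by TMM factors or by the median ratio of shared unigenes, the rule marked 3 members as higher and 9 as lower, and 0 members changed direction. Of all described unigenes, it then marked 6.64% as higher and 17.9% as lower with TMM factors, and 6.93% as higher and 17.5% as lower with the median ratio. The median log2 difference of the 37 members whose mean level reached 1 FPKM was 1.01 (range -7.58 to 3.89). Over 6259 described unigenes with the same minimum it was 0.93. Since the authors' table holds no difference under 2-fold, a median mainly shows which direction holds more unigenes. Over 17574 unigenes of that table with the same minimum, 8348 higher and 9226 lower, it was -1.05. The members ranged from 274 to 4981 bases (median 915) and from 12 to 7061 fragments in both libraries together (median 128), and 11 of them had under 50 fragments.

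**Figure D1:**
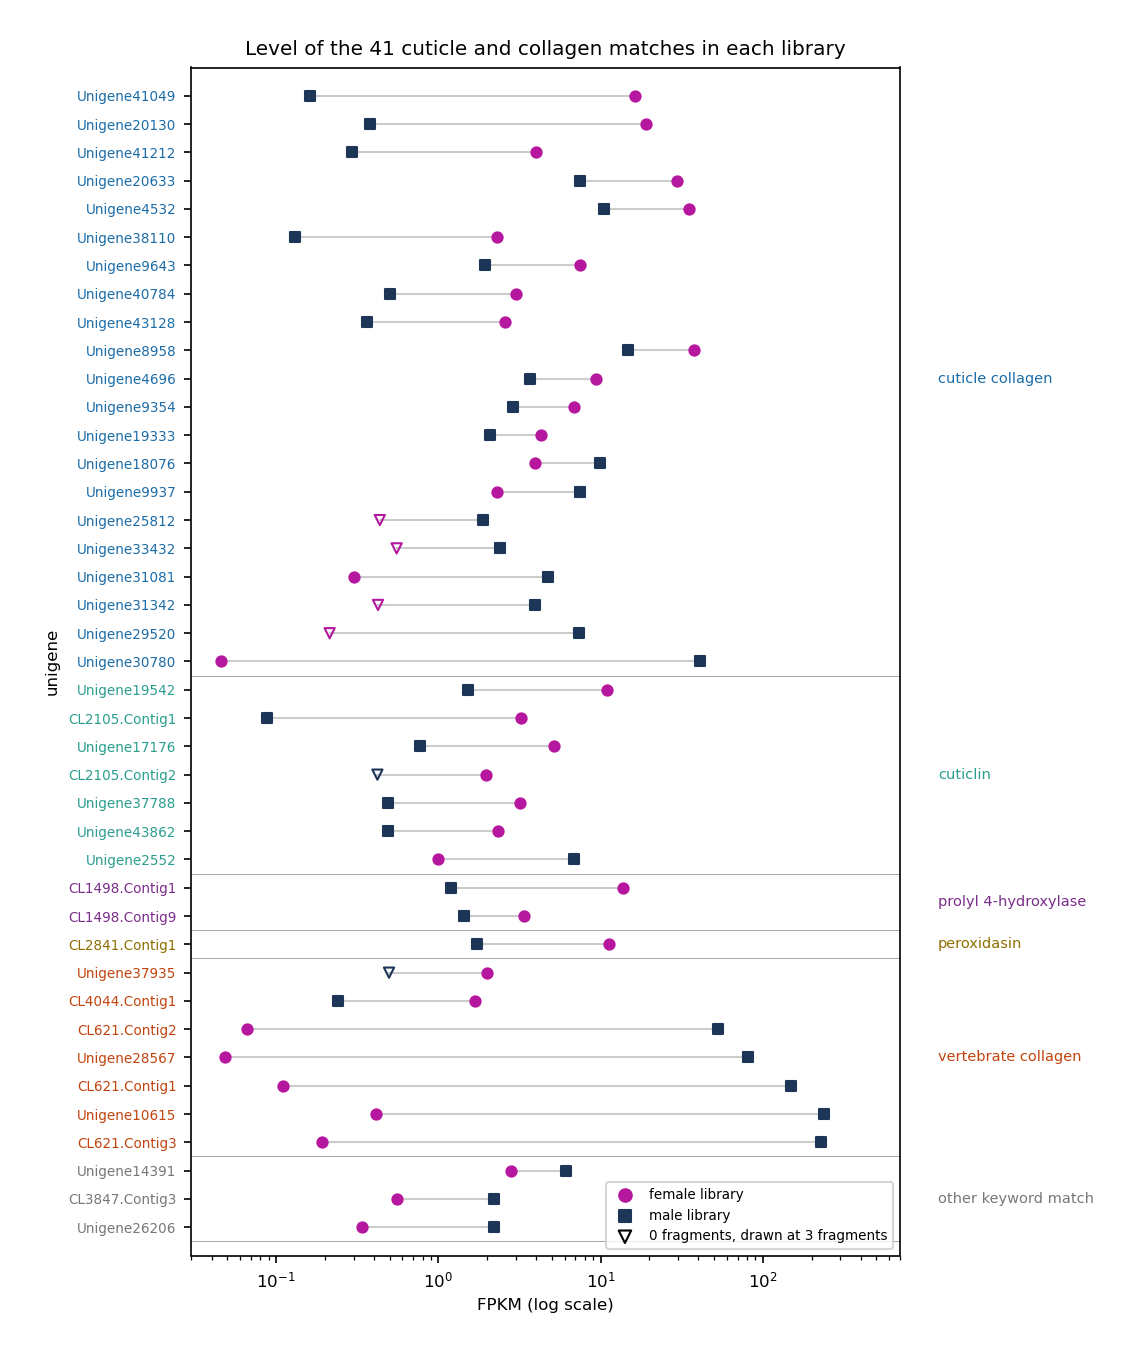
Level of each of the 41 unigenes in FPKM on a log axis, with the female library as circles and the male library as squares, grouped by class; an open triangle stands at the level of 3 fragments where a library had 0. Most cuticle collagens and cuticlins lie higher in the female library, and 5 of the 7 unigenes with a vertebrate collagen match lie between 52.8 and 240 FPKM in the male library and under 0.5 FPKM in the female library.

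Cuticle collagens were the largest class and divided between the sexes, with 13 of 21 higher and 8 lower in the female library. Their median log2 difference was 1.22 over the 20 that reached a mean of 1 FPKM, with a range of -5.33 to 3.89. Summed over the class they took 180 CPM, the fragments in every 1 M of the library (95% interval 174 to 186) in the female and 111 CPM (106 to 116) in the male library, which is 1.63-fold higher in the female library (1.54 to 1.72). Of the class, 2 unigenes (9.52%) passed the size rule as higher and 2 (9.52%) as lower, against 8.77% and 15.9% of all described unigenes.

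The unigene closest to C. elegans col-19 (Unigene41049, 2350 bases) had 16.2 FPKM from 755 fragments in the female library and 0.162 FPKM from 7 fragments in the male library. It stood 100-fold higher in the female worm's library (48.3 to 250). In C. elegans col-19 is a collagen of the adult cuticle, but the match is partial, with the lowest Swiss-Prot score per codon of the class, 0.254. A unigene closest to col-34 (Unigene20130) had 18.9 FPKM from 483 fragments in the female library and 0.380 FPKM from 9 fragments in the male library, 49.8-fold higher in the female library (26.0 to 110). For both, the male level rests on under 10 fragments, while the female level was among the highest of the class.

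The other cuticle collagens above 10 FPKM in the female library differed less and had over 100 fragments in each library. The unigene closest to col-7 with the highest level (Unigene8958) had 37.7 FPKM in the female and 14.8 FPKM in the male library, higher in the female library by 2.55-fold (2.05 to 3.19). A match to col-10 (Unigene4532) had 35.0 FPKM in the female and 10.4 FPKM in the male library, 3.36-fold higher (2.76 to 4.10). A match to col-39 (Unigene20633) had 29.5 FPKM in the female and 7.51 FPKM in the male library, 3.93-fold higher (3.32 to 4.68). These 3 unigenes, with Unigene41049 and Unigene20130, were the cuticle collagens above 10 FPKM in the female library. All 5 were higher there than in the male library, a direction that choosing by a high female level favours. The same cut in the male library gave Unigene8958, Unigene4532 and Unigene30780, the last with 41.1 FPKM there and 0.0459 FPKM in the female library.

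The remaining 8 cuticle collagens that were higher in the female library lay between 2.31 and 9.36 FPKM there. The highest was a match to col-14 (Unigene4696), with 9.36 FPKM in the female and 3.65 FPKM in the male library. A match to col-6 (Unigene9643), whose Nr hit is rol-8, a collagen whose mutants roll because the body is twisted, had 7.48 FPKM in the female and 1.95 FPKM in the male library, 3.84-fold higher (2.73 to 5.52). The lowest was a match to col-2 (Unigene38110), with 2.31 FPKM from 19 fragments in the female and 0.131 FPKM from 1 fragment in the male library. Its ratio of 17.6 has an interval of 2.80 to 733, so the size of the difference is poorly fixed at this depth.

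In the other direction, a match to col-10 stood apart from the rest of the class. Unigene30780 (1101 bases) had 0.0459 FPKM from 1 fragment in the female library and 41.1 FPKM from 831 fragments in the male library, a ratio of 895 lower in the female library with an interval of 160 to 35409. It was the most abundant cuticle collagen of the male library and held 40.9% of its cuticle collagen fragments. Without it, the class stood higher in the female library by 2.75-fold (2.58 to 2.94). Unigene30780 and Unigene4532 share their Swiss-Prot match, col-10 of Caenorhabditis briggsae, and their Nr match, a hypothetical protein of the filarial worm Loa loa, yet differed in opposite directions.

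A match to col-7 (Unigene29520) was the other cuticle collagen past the size rule as lower. It had 0 fragments in the female library and 7.37 FPKM from 96 fragments in the male library, at least 34.5-fold lower in the female library when 0 is set at 3 fragments per library. Further matches to col-7 were Unigene31342, with 0 fragments in the female and 26 in the male library, and Unigene31081, with 2 in the female and 29 in the male library. Short matches to dpy-2, a collagen of the furrows of the cuticle whose loss makes the worm short and stout, were also seen in the male library alone: Unigene25812 (348 bases) had 0 FPKM in the female and 1.88 FPKM in the male library, and Unigene33432 (274 bases) had 0 FPKM in the female and 2.39 FPKM in the male library. Both rest on 12 fragments in the male library, at least 4.31-fold lower in the female library when 0 is set at 3 fragments. That bound leaves out the counting error of the 12 fragments. The last of the class were matches to col-13 (Unigene18076), with 3.96 FPKM in the female and 9.98 FPKM in the male library, and to col-8 (Unigene9937), with 2.31 FPKM in the female and 7.46 FPKM in the male library. These were 2.52-fold (2.01 to 3.17) and 3.23-fold (2.34 to 4.53) lower in the female library.

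The same best match thus covered unigenes of both directions. Across cuticle collagens and cuticlins, 12 Swiss-Prot names were used, 6 of them by more than 1 unigene, and 3 of these 6 held both directions. For col-7, 4 unigenes were higher and 3 lower in the female library, and for col-10 the division was 1 and 1. The NCBI RefSeq gene table of the assembly Toxocara_canis_adult_r1.0 has 78 genes with a col- symbol among 18596, so a shared best match does not mean a shared gene. Of the 14 cuticle collagen unigenes of at least 500 bases, 10 were higher in the female library (median log2 difference 1.29). Of the 7 shorter ones, 3 were higher and 4 lower. The median was -0.23 over the 6 shorter ones with a mean of 1 FPKM or more, which leaves out Unigene25812, at -1.53. The shorter ones include 3 of the 4 cuticle collagens with 0 fragments in the female library. Near-identical collagens can share fragments, and how the authors' counting divided such fragments is not given in the sources used here.

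**Figure D2:**
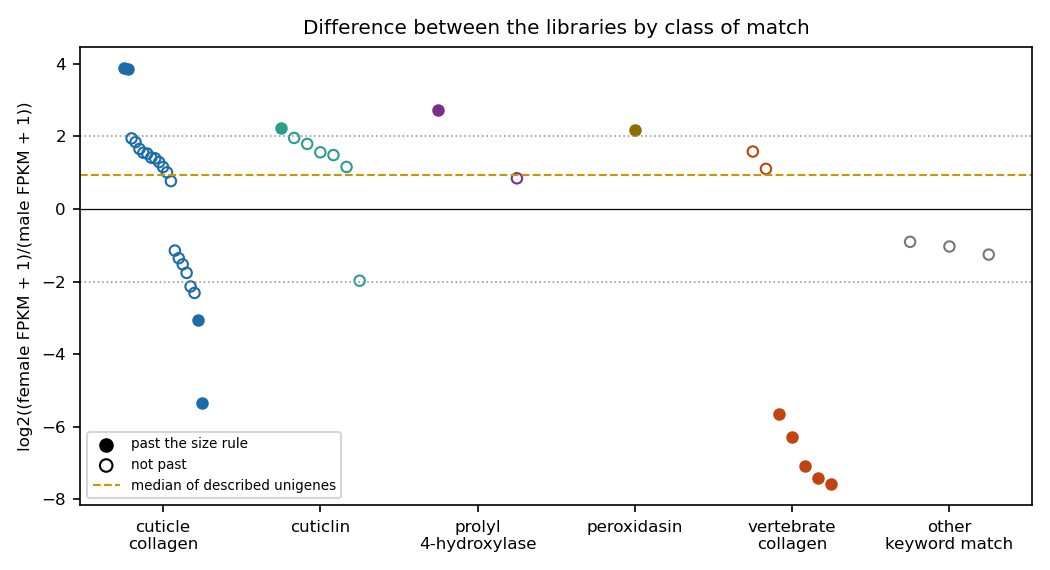
Difference between the libraries as log2((female FPKM + 1)/(male FPKM + 1)) for each unigene by class, with values above 0 higher in the female library; filled points passed the size rule, dotted lines mark 2 and -2, and the dashed line marks the median of described unigenes, 0.93. Cuticle collagens spread from -5.33 to 3.89, and the vertebrate collagen matches fall into a pair above 1 and a group of 5 between -7.58 and -5.66.

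Cuticlin matches leaned to the female library, with 6 of 7 unigenes higher and 1 lower. All 7 have C. elegans cut-1 as their Swiss-Prot match, with scores of 61.2 to 535. Summed, they took 29.0 CPM (26.6 to 31.4) in the female and 12.6 CPM (11.0 to 14.3) in the male library, higher in the female library by 2.30-fold (1.97 to 2.69). The most abundant, Unigene19542, had 11.0 FPKM from 209 fragments in the female library and 1.53 FPKM from 27 fragments in the male library, 7.18-fold higher (4.80 to 11.2), and was the only cuticlin past the size rule. Under either of the other scalings it was no longer past that rule, and Unigene2552 was past it as lower in the female library.

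Unigene17176, whose Nr match is a collagen alpha-3(VI) chain of Loa loa, had 5.13 FPKM in the female and 0.769 FPKM in the male library, 6.67-fold higher (4.41 to 10.5). The contigs of cluster CL2105, both with a cuticlin as Nr match, had 94 fragments in the female and 2 fragments in the male library, a ratio of 43.6 with an interval of 11.7 to 365. Unigene37788 had 3.17 FPKM in the female and 0.488 FPKM in the male library, and Unigene43862, whose Nr match names the zona pellucida domain, had 2.32 FPKM in the female and 0.486 FPKM in the male library. The exception was Unigene2552, with 0.995 FPKM from 26 fragments in the female library and 6.84 FPKM from 166 fragments in the male library, 6.88-fold lower in the female library (4.53 to 10.8). Its Swiss-Prot score, 386, was the second highest of the cuticlins, so the male-side cuticlin is not the one with the weakest match. On the female side, the contigs of CL2105 scored 535 and 251, and Unigene17176 scored 224, against 845.1 for its Nr match. The scores were 109 for Unigene19542, 63.5 for Unigene37788 and 61.2 for Unigene43862. The Gene Ontology term for the cuticle matrix was given to 3 cuticlins, Unigene2552 and the contigs of CL2105.

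The matches to prolyl 4-hydroxylase and peroxidasin, enzymes that modify or cross-link collagen, were higher in the female library. Prolyl 4-hydroxylase was represented by a pair of contigs of cluster CL1498 that match phy-2, an alpha subunit of the enzyme. The short CL1498.Contig1 (274 bases) had 13.6 FPKM from 74 fragments in the female library and 1.19 FPKM from 6 fragments in the male library, 11.4-fold higher (5.02 to 32.2). The long CL1498.Contig9 (1772 bases) had 3.39 FPKM from 119 fragments in the female library and 1.44 FPKM from 47 fragments in the male library, 2.35-fold higher (1.66 to 3.37). The cluster holds 12 contigs, of which 10 are outside the authors' table, and over all 12 it had 484 fragments in the female and 219 in the male library, 2.05-fold higher (1.74 to 2.42). The 11.4-fold difference therefore belongs to the short contig and not to the cluster.

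The longest member is named by its Swiss-Prot match, peroxidasin of Drosophila. This haem peroxidase cross-links type IV collagen of basement membranes in Drosophila and vertebrates. The Swiss-Prot score was 338, or 0.204 per codon. The Nr match is a hypothetical protein of Caenorhabditis brenneri with a score of 1686, and the KEGG entry is a peroxidase. What the unigene encodes was not tested. CL2841.Contig1 (4981 bases) had 11.3 FPKM from 1112 fragments in the female library and 1.74 FPKM from 159 fragments in the male library, 6.49-fold higher (5.49 to 7.71). It passed the size rule on the deposited scale and did not under the other scalings.

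**Figure D3:**
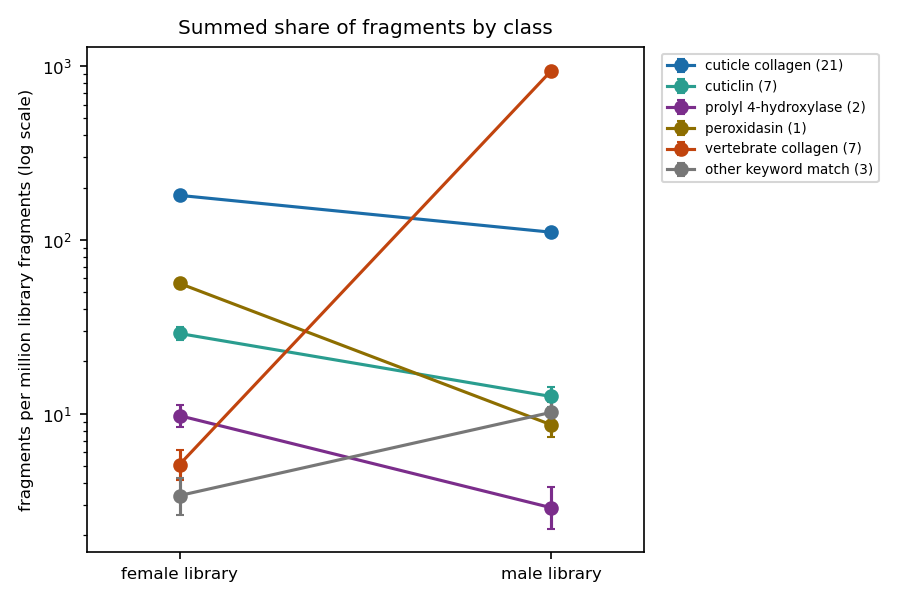
Fragments in every 1 M library fragments (CPM) summed over each class, on a log axis, with the female library left and the male library right; bars are exact 95% binomial intervals for counting error. Cuticle collagens, cuticlins, prolyl 4-hydroxylase and peroxidasin stand higher in the female library, whereas the vertebrate collagen matches stand at 5.10 CPM in the female and 935 CPM in the male library.

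Nematode cuticle matches and vertebrate collagen matches both held unigenes of either direction, but their medians differed in sign. Of the 28 cuticle collagens and cuticlins, 19 were higher and 9 lower in the female library. The size rule marked 3 (10.7%) as higher and 2 (7.14%) as lower, against 8.77% and 15.9% of all described unigenes. Under the other scalings it marked 2 and 4. The 28 unigenes took 209 CPM in the female and 123 CPM in the male library, 1.70-fold higher in the female library (1.61 to 1.79). This was 1.27-fold with TMM factors and 1.32-fold with the median ratio. Of the 7 vertebrate collagen matches, 2 were higher and 5 lower, and the rule marked 0 as higher and 5 as lower. They were 183-fold lower in the female library when summed (151 to 225). Median log2 differences were 1.34 over 26 nematode cuticle matches and -7.08 over 5 vertebrate matches, counting those with a mean of 1 FPKM or more. This minimum left out both vertebrate matches that were higher in the female library. Without it the vertebrate median was -6.29. The nematode median lay near the 0.93 of all described unigenes.

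The vertebrate class is not of 1 kind. The 5 unigenes lower in the female library all have the same Nr match, an ATP-dependent helicase brm-like protein of the wasp Nasonia vitripennis, and were given the KEGG entry of the SWI/SNF chromatin remodelling ATPase. Summed, these 5 had 21 fragments in the female and 17156 fragments in the male library, 880-fold lower in the female library (576 to 1422). They supplied 0.374% of the members' fragments in the female library and 86.5% in the male library. As a result all 41 members together took 284 CPM in the female and 1080 CPM in the male library, 3.81-fold lower in the female library (3.69 to 3.92), whereas the 36 members without these 5 were 1.94-fold higher (1.85 to 2.03).

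Unigene10615, whose Swiss-Prot match is chicken type I collagen, was the most abundant member of the male library, with 0.410 FPKM from 13 fragments in the female and 240 FPKM from 7048 fragments in the male library, 584-fold lower in the female library (341 to 1098). The contigs of cluster CL621 match type I or type V collagen of cow, hamster and dog. CL621.Contig3 had 0.192 FPKM in the female and 227 FPKM in the male library, CL621.Contig1 had 0.111 FPKM in the female and 149 FPKM in the male library, and CL621.Contig2 had 0.066 FPKM in the female and 52.8 FPKM in the male library. All 3 rest on 1 or 2 fragments in the female library, against 742 to 2510 in the male library. The remaining contig of that cluster, CL621.Contig4, is in the authors' table without a description and had 0 FPKM in the female and 34.4 FPKM in the male library. Unigene28567, matched to human type V collagen, had 0.0484 FPKM from 3 fragments in the female and 80.9 FPKM from 4659 fragments in the male library, a ratio of 1673 with an interval of 572 to 8117.

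The search scores behind these names are low. The 5 unigenes had Nr scores of 52.8 to 73.9 and Swiss-Prot scores of 83.6 to 128, so both the helicase and the collagen name rest on low scores. In the authors' deposited table, 5 further unigenes carry the same KEGG entry without a collagen match, with Nr scores of 93.2 to 385.6, and all 5 were higher in the female library. An example is Unigene9465, matched to the transcription activator BRG1, with 4.06 FPKM in the female and 1.54 FPKM in the male library. The class is therefore described here by its database match, and neither name was tested further.

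Cuticle collagens had low Nr scores as well, 52.4 to 125.6 with a median of 59.7. Their Swiss-Prot scores were higher than their Nr scores in 18 of 21, with a range of 65.5 to 491 and a median of 215. This order of scores also held for all 5 brm-like unigenes. The lowest Swiss-Prot scores of cuticle collagens lay within or below the 83.6 to 128 of those 5. Of the 21, 18 also had a collagen as KEGG entry.

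**Figure D4:**
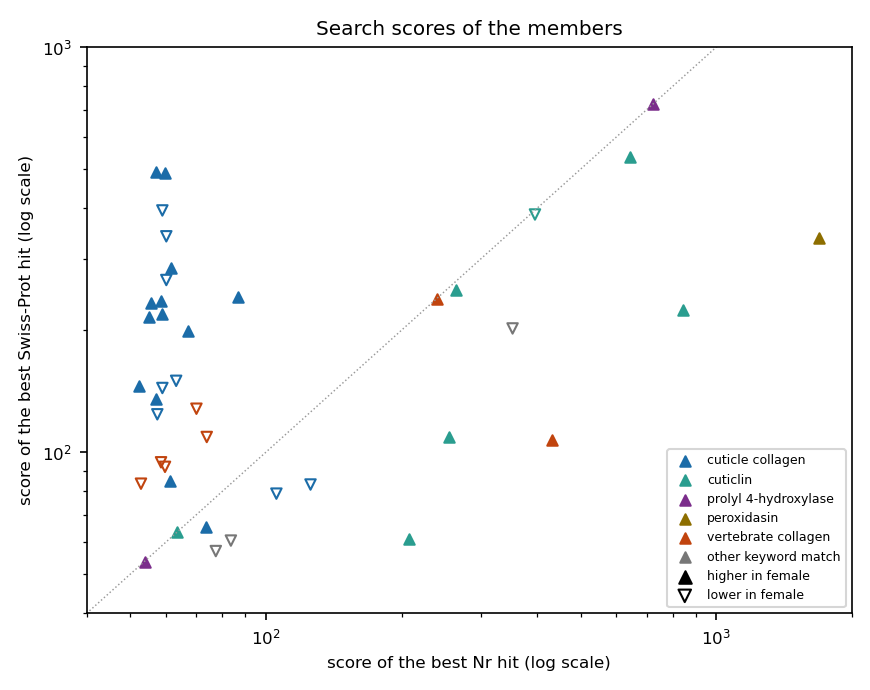
Score of the best Swiss-Prot hit against that of the best Nr hit for each member, both on log axes, as the authors deposited them; filled triangles were higher and open triangles lower in the female library, and the dotted line marks equal scores. Of the cuticle collagens, 18 of 21 lie above the line, with Swiss-Prot scores up to 491. The 5 vertebrate matches that were lower in the female library also lie above it, at Swiss-Prot scores of 83.6 to 128.

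The other pair of vertebrate matches was higher in the female library, with 80 fragments in the female and 9 in the male library, 8.25-fold higher (4.13 to 18.7). CL4044.Contig1 matches mouse type XV collagen in Swiss-Prot and, with a higher score of 431.8, C. elegans cle-1 in Nr, the collagen XV and XVIII relative of nematode basement membranes. It had 1.67 FPKM from 67 fragments in the female and 0.242 FPKM from 9 fragments in the male library, 6.91-fold higher (3.43 to 15.8). Unigene37935 (329 bases) matches type I collagen of primates in Nr, Swiss-Prot and Nt, and its nucleotide match is human with a score of 1.98 per base. It had 2.0 FPKM from 13 fragments in the female library and 0 fragments in the male library, at least 4.02-fold higher when 0 is set at 3 fragments. In the authors' table, 20 unigenes have a human nucleotide match of at least 1.8 per base, and 15 of them had 0 fragments in the male library and 5 had 0 in the female library. Whether Unigene37935 is a transcript of the worm was not tested.

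The 3 other matches to the search words were lower in the female library and none passed the size rule. Unigene14391, closest to a locust cuticle protein in Swiss-Prot and to an RNA polymerase II subunit in KEGG, had 2.82 FPKM in the female and 6.14 FPKM in the male library. CL3847.Contig3 matches the collagen type IV alpha-3-binding protein, which in mammals carries ceramide between membranes and is no collagen. It had 0.559 FPKM in the female and 2.19 FPKM in the male library, 3.92-fold lower (2.42 to 6.60), but CL3847.Contig2 of the same cluster had 10.6 FPKM in the female and 7.43 FPKM in the male library, and the cluster as a whole had a ratio of 1.13 (0.987 to 1.30). Unigene26206, closest to interstitial collagenase, an enzyme that in mammals cuts fibrillar collagen, had 0.340 FPKM from 4 fragments in the female and 2.20 FPKM from 24 fragments in the male library.

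Other genes of cuticle and matrix assembly were searched in 25 families by words of their descriptions. Such words also caught other genes. Unigene41939, found under integrin, matches an integrin-linked kinase-associated phosphatase, and Unigene40435, found under thioredoxins, matches a Trypanosoma peroxidase. Of 120 unigenes found, 75 were higher and 45 lower in the female library, and 10 passed the size rule as higher and 16 as lower (8.33% and 13.3%), close to the 8.77% and 15.9% of described unigenes. Over the 87 of them with a mean of 1 FPKM or more, the median log2 difference was 1.00. Each contig was counted as a unigene, and several families, such as the patched family, hold several contigs of a single cluster. No unigene of the authors' table matched the subtilisin-like proteinases, the lysyl hydroxylases and oxidases, or nidogen.

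Protein disulfide isomerases and dual oxidases were higher, and most peptidyl-prolyl isomerases lower, in the female library. Unigene23229, matched to pdi-2, the protein disulfide isomerase that forms the prolyl 4-hydroxylase complex with phy-2, had 966 FPKM in the female and 456 FPKM in the male library, 2.12-fold higher. All 3 unigenes of dual oxidase, the enzyme bli-3 that supplies peroxide for tyrosine cross-links in the cuticle, were higher in the female library, at 2.15 to 2.70 FPKM in the female and 0 to 0.419 FPKM in the male library. Of the 12 peptidyl-prolyl isomerases, which turn proline bonds during folding, 1 was higher and 11 were lower, 3 of them past the size rule. Several of the lower ones are contigs of clusters CL2552 and CL2734. The most abundant isomerase, Unigene7487, matched to cyn-3, had 39.5 FPKM in the female and 318 FPKM in the male library, 8.04-fold lower in the female library.

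Astacin metalloproteinases, a family that includes the procollagen C-proteinase, had 13 of 25 unigenes higher and 12 lower, and 3 of the lower ones passed the size rule. Most of the higher ones are contigs of cluster CL1764, and several of the lower ones are contigs of clusters CL5959 and CL2189. The most abundant astacin was a match to nas-7 (Unigene20898), with 3.69 FPKM in the female and 27.5 FPKM in the male library. A match to nas-37 (Unigene30943), the proteinase that opens the old cuticle at molting, had 0.0755 FPKM in the female and 6.84 FPKM in the male library. Both unigenes matched to tissue inhibitors of metalloproteinases were past the size rule as higher. Unigene17344 had 228 FPKM in the female and 0.823 FPKM in the male library, 277-fold higher (162 to 521), and Unigene2772 had 161 FPKM in the female and 1.43 FPKM in the male library, 113-fold higher.

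Among regulators of molting, nhr-23, a nuclear receptor that drives molting, had 7.01 FPKM in the female and 0.931 FPKM in the male library (Unigene49), 7.53-fold higher. A match to mlt-10 (Unigene29399) had 0 FPKM in the female and 3.52 FPKM in the male library. Patched family proteins, some of which are needed for molting, had 25 of 33 higher and 8 lower, with 4 past the size rule in each direction.

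Among proteins of basement membranes and their receptors, 3 of 4 laminin unigenes, 4 of 4 unigenes grouped as perlecan and 3 of 3 unigenes of discoidin domain receptors, which bind collagen, were higher in the female library, and 0 of these passed the size rule. The laminin unigene that was lower, Unigene27233, has a laminin as Nr match but perlecan as Swiss-Prot match, so it could be counted in either family; it had 0.370 FPKM in the female and 3.29 FPKM in the male library. The most abundant of these families, the perlecan contig CL5494.Contig1, had 45.0 FPKM in the female and 20.0 FPKM in the male library. Hemicentin matches went the other way, with 1 of 5 higher and 4 lower, and Unigene9752 had 3.49 FPKM in the female and 72.4 FPKM in the male library. Of 3 fibulin and fibrillin matches 1 was higher and 2 were lower, and the fibrillin match Unigene2404 had 3.32 FPKM in the female and 39.5 FPKM in the male library, 11.9-fold lower in the female library. Papilin, a glycoprotein of basement membranes, had 4 of 6 unigenes higher and 2 lower, with 1 past the size rule in each direction. The papilin match Unigene28874 had 0.184 FPKM from 4 fragments in the female and 179 FPKM from 3598 fragments in the male library, 969-fold lower in the female library (378 to 3559).

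The largest difference of the 120 unigenes belonged to one grouped, by its Nr description alone, under the zona pellucida domain. Cuticlins share this domain with other secreted proteins, and whether the unigene encodes it was not tested. CL5875.Contig1, whose Nr match is a vitelline envelope protein with that domain and whose Swiss-Prot match is a frog mucin, had 0.431 FPKM from 24 fragments in the female and 1406 FPKM from 72708 fragments in the male library, 3264-fold lower in the female library (2194 to 5095). It has no cuticlin match and is not among the 41 members. No family was tested against another.

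**Figure D5:**
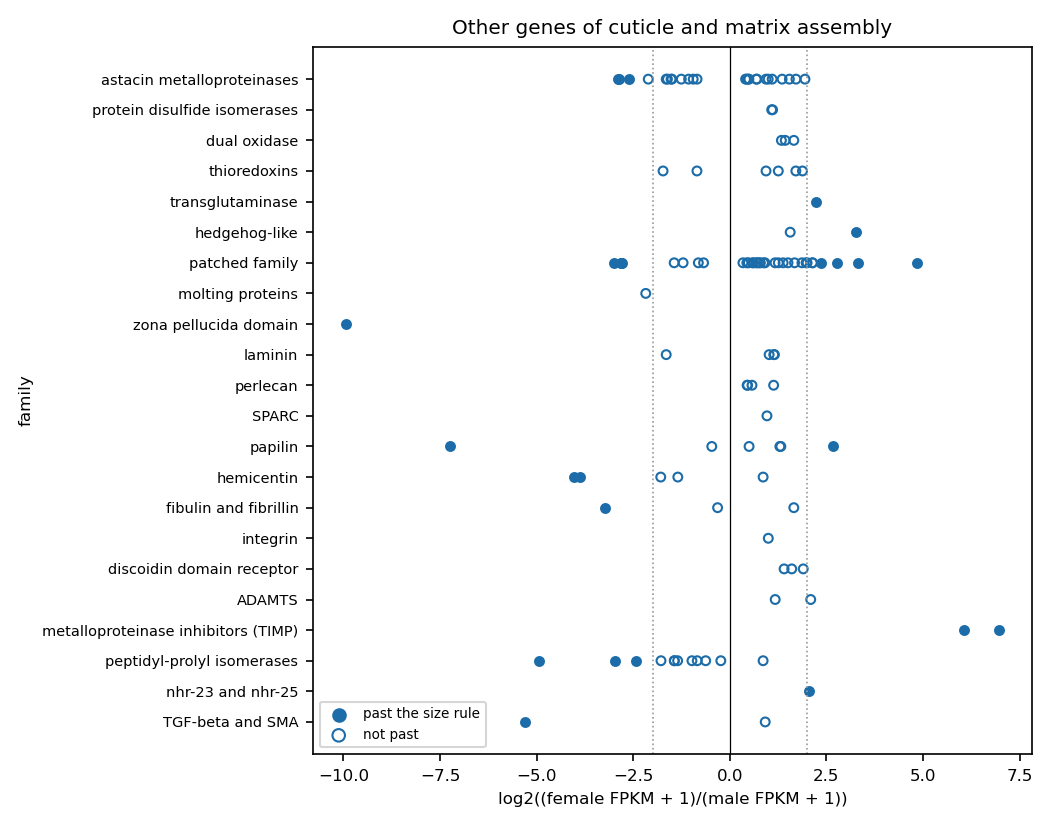
Difference between the libraries as log2((female FPKM + 1)/(male FPKM + 1)) for 120 unigenes found by description words for families of cuticle and matrix assembly. All are from the authors' table, and values above 0 are higher in the female library. Filled points passed the size rule and dotted lines mark 2 and -2. Both metalloproteinase inhibitors lie above 6, dual oxidase, protein disulfide isomerase and discoidin domain receptors lie on the female side, and 11 of 12 peptidyl-prolyl isomerases and the zona pellucida match, near -10, lie on the male side.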

How the data were processed

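Per the labels' protocols, total RNA of a whole female and a whole male adult worm was extracted with Trizol, selected for poly-A RNA, fragmented, copied with random primers and amplified by PCR. The authors deposited, per the file headers, fragment counts and FPKM for each unigene, and for 21280 unigenes a log2 ratio, a p-value, an FDR and the best database hit with its score. Every unigene of that deposited table has an FDR under 0.001; no source used here names the test, the assembler, the aligner or the counting program. The deposited FPKM equal the count divided by length and library total within 5.0e-05. A unigene missing from a library's table was taken as 0 fragments.

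With 1 library per sex no p-value was computed. A fold is the ratio of library shares without a pseudocount, with a conditional exact 95% binomial interval. For a bound, 0 fragments were set to 3 per library, and the count of the other library was taken without counting error. The members, classes, marker lists and pathway families were chosen with earlier results of these data known. The rule for names took, per class, the 6 most abundant members by mean FPKM and, in each direction, the 2 outermost with at least 5 FPKM, which gave 25 unigenes, and up to 3 per pathway family; Unigene30943, further cuticle collagens, CL2105.Contig2, CL4044.Contig1, Unigene9465 and the contigs outside the members were named after their values were seen. TMM factors came from edgeR 4.0.16 in R 4.3.3, and all else from SciPy 1.17.1, NumPy 2.4.6 and pandas 2.3.3 under Python 3.11.15, with matplotlib 3.10.9 for figures. The size rule and intervals were checked on simulated counts. Alternatives were the pseudocount, scaling, thresholds, 1 unigene per cluster and 1 database.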

Additional observations from a re-analysis of the deposited data

How the results depend on the processing

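No paired analysis was possible because there is 1 library per sex. The count of members past the size rule as higher in the female library, 5, was 2 with a pseudocount of 5 FPKM, 3 with TMM factors, 3 with the median ratio of shared unigenes, 1 with Nr descriptions only, 12 at a log2 difference of at least 1 and 2 at one of at least 3. The count lower in the female library, 7, was 0 with Nr descriptions only, which leave 13 members, and 2 without the 5 brm-like unigenes. The median log2 difference, 1.01, was -5.66 among the 9 members whose mean reached 10 FPKM, of which 5 are the brm-like unigenes. The difference between the medians of nematode cuticle and vertebrate collagen matches, 8.43, was 10.9 with a pseudocount of 0.1 FPKM and 5.47 with one of 5 FPKM; with Nr descriptions only it has no value, since no vertebrate match reaches a mean of 1 FPKM. The members' summed share, 0.263 female over male, was 0.197 with TMM factors, 0.205 with the median ratio, 0.407 without the member with the most fragments, 4.03 with Nr descriptions only, 1.94 without the 5 brm-like unigenes and 2.82 without these and Unigene30780, the last 2 chosen after seeing the data. Without a pseudocount, TMM factors moved every log2 ratio of female over male by -0.41 and the median ratio by -0.36. With 1 FPKM added, the shift varied with the level, and the median of described unigenes was then 0.60 and 0.64. Of all 47 recomputed values, 30 moved by less than 1.5 times for a count, or by less than the interval of a median or ratio, and 4 turned direction. Depth limits the 11 members with under 50 fragments.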
